A study of Mus musculus with 5 samples.

Results

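The ovary holds smooth muscle besides the muscle of its vessels. Smooth muscle cells contract when myosin, switched on by myosin light chain kinase, pulls on actin filaments, and their contractile genes are known to be driven together by serum response factor with its partner myocardin. In the ovary such cells are known from the follicle wall and the stroma, and muscle actins, calponin and transgelin mark them. The cells described here were selected on their own transcripts. A cell was taken when it held at least 2 UMIs (unique molecular identifiers, each standing for 1 captured RNA molecule) of each of Actg2 (gamma smooth muscle actin), Cnn1 (calponin 1) and Tagln (transgelin), and at least 1 UMI of Myoc (myocilin, a secreted protein), Tnnt2 (cardiac troponin T) or Sh3bgr. It had to hold no UMI of Rgs5, Cdh5 or Ptprc, which mark mural, endothelial and blood cells, and at most 4 of Inha, which granulosa cells express. It also had to show at least 1000 genes and a mitochondrial share of UMIs under 15%. Of 48163 deposited cells, 39967 passed the limits on genes and mitochondrial share, and 1770 met the whole rule. They are called members here.

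Ovaries of untreated C57BL6/J mice were taken at 2, 3, 4, 5 and 6 wk of age, dissociated with trypsin, sorted for live cells and sequenced by 10x Genomics 3′ chemistry, with a single library per age. How many mice stood behind a library is not given in the sources used here. The libraries held between 93438618 and 144609431 UMIs, and the members held a median of 12638.5, 8321, 9364.5, 12053 and 12596.5 UMIs per cell at 2, 3, 4, 5 and 6 wk. The 2, 3 and 4 wk tables were made with Cell Ranger 3.1.0 and the 5 and 6 wk tables with 6.0.1, so age and software version cannot be told apart. Because an age had no replicate, levels between ages are given with counting intervals and no test. Between 18 and 35 cell barcodes were shared by each pair of libraries.

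Members made up between 3.73% and 5.50% of the cells at each age. There were 344, 303, 342, 361 and 420 members at 2, 3, 4, 5 and 6 wk. Their share of the cells that passed the limits was 4.44% (exact binomial 95% interval 3.99 to 4.92) at 2 wk and 3.96% at 3 wk. It was lowest at 4 wk, with 3.73%, and highest at 5 wk, with 5.50%, and stood at 4.76% at 6 wk. The share at 6 wk was 1.07 times that at 2 wk (95% interval 0.928 to 1.24), and the share at 5 wk was 1.48 times that at 4 wk (1.27 to 1.72). Such intervals hold the error of counting and no other. Cells just inside the rule, with exactly 2 UMIs of Actg2, Cnn1 or Tagln, numbered 34, 26, 37, 46 and 54 in the order of age. Cells just outside it, whose scarcest of these 3 genes stood at 1 UMI, numbered 41, 32, 54, 72 and 84. Cells that met the clauses on genes a member must hold numbered 416, 349, 423, 407 and 493. Of these the limit on Inha removed 36, 28, 61, 25 and 50, unevenly between 4 and 5 wk. Its part in the shares of members was not tested.

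**Figure D1:**
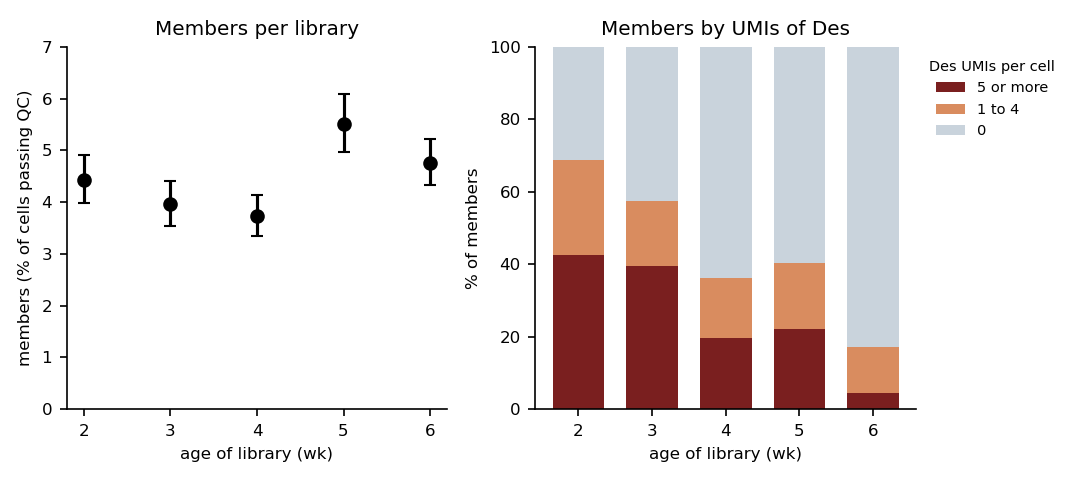
Left, members as a percentage of the cells that passed the limits on genes and mitochondrial share (QC) in the library of each age, with exact binomial 95% intervals. Right, members divided by their UMIs of Des, as a percentage of the members of each library. The share of members stayed between 3.73% and 5.50%, while members with at least 5 Des UMIs went from 42.4% at 2 wk to 4.52% at 6 wk.

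The rule drew on 3 genes of very unequal frequency. Sh3bgr had a UMI in 84.6%, 79.9%, 84.2%, 88.6% and 90.7% of members at 2, 3, 4, 5 and 6 wk. Tnnt2 had one in 85.8%, 73.9%, 69.3%, 55.4% and 53.1%, and Myoc in only 24.7%, 11.6%, 15.8%, 17.5% and 16.4%. Most members thus entered the group without a Myoc transcript, and the cells are named here by Actg2, Cnn1 and Tagln, not by Myoc. When the members with at least 5000 UMIs were thinned to that number, which left out 5 members at 2 wk and 6 at 6 wk, the share with a Tnnt2 UMI was 72.6% at 2 wk and 37.4% at 6 wk, and the share with a Sh3bgr UMI was 61.7% and 62.6%. In hematopoietic cells (at least 2 UMIs of Ptprc), which should lack these genes, a Tnnt2 UMI was found in 1 of 32 cells at 2 wk and in 0 of 89 at 6 wk, and a Sh3bgr UMI in 1 of 32 and 2 of 89. Those cells held a median of 9368 and 9150 UMIs. Other genes of the rule were found there too, with a Tagln UMI in 4 of 32 and 18 of 89 cells. A Cnn1 UMI was found in 3 of 32 and 2 of 89, and an Actg2 UMI in 1 of 32 and 5 of 89. Summed over members and divided by the summed UMIs of the group and scaled as CPM, Tnnt2 stood at 612, 393, 336, 263 and 189 CPM in the order of age. Sh3bgr stood at 238, 249, 250.3, 306 and 236 CPM. Myoc stood at 123, 38.2, 88.8, 121 and 83.6 CPM and had no trend over the 5 libraries.

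Members lay together in gene expression that the rule had not used. Over 30 principal components of 2000 variable genes without the genes of the rule, 74.4%, 74.6%, 70.0%, 70.4% and 67.9% of the 20 nearest neighbours of a member were members. Cells that met the contractile clauses but held no UMI of Myoc, Tnnt2 or Sh3bgr supplied 3.68% to 7.11% of the neighbours in each library. Of the groups defined below, Ednrb Foxp2 cells supplied 2.327% to 3.345%, matrix stromal cells 1.30% to 2.83% and Rgs5 mural cells 0% to 0.9736%. Scrublet called 3, 1, 2, 2 and 2 members doublets.

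The contractile machinery set the members apart from 3 other cell groups of the same libraries. Matrix stromal cells (8496 cells with at least 3 UMIs of Dcn, a UMI of Lum or Mmp2 and none of Actg2 or Cnn1), Rgs5 mural cells of vessels (627 cells with at least 2 UMIs of Rgs5) and Ednrb Foxp2 cells (340 cells with a UMI of Ednrb, Foxp2 and Tagln and at most 1 of Actg2) were each compared with the members over the 5 libraries, with the library as a block. A gene was called at an adjusted p under 0.05 in edgeR's quasi-likelihood test and a log2 difference of at least 1. All of these groups were chosen by their transcripts, so the calls describe how the groups differed and lend no support to the rule. Genes that define a group were left out of its test. Most members also held an Ednrb UMI, 61.3% of them at 2 wk and 79.3% at 6 wk. A Foxp2 UMI was found in 57.85% and 86.7% of members at the same ages. Ednrb and Foxp2 thus do not set Ednrb Foxp2 cells apart from members, while the limit on Actg2 does. The lower contractile levels of those cells are therefore not independent of how they were chosen.

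Acta2 encodes alpha smooth muscle actin. Its level in members was 13068, 12652, 13079, 13317 and 12931 CPM at 2, 3, 4, 5 and 6 wk. In Ednrb Foxp2 cells it ran from 4058 to 5871 CPM, in Rgs5 mural cells from 2840.1 to 5443 CPM, and in matrix stromal cells from 499 to 841 CPM. No library of these 3 groups reached the members. Acta2 was higher in members by 1.48 ± 0.07 on the log2 scale (SE, n = 5 libraries, edgeR adjusted p = 7.2e-11) over Ednrb Foxp2 cells, by 1.84 ± 0.14 over mural cells and by 4.46 ± 0.13 over matrix stromal cells. Myh11, the smooth muscle myosin heavy chain, stood at 2419, 3005, 2768, 2811 and 2086 CPM in members, and its log2 difference was 2.24 ± 0.13, 1.37 ± 0.13 and 6.35 ± 0.13 against the same groups. Its range in mural cells, 679 to 1715 CPM, lay below that of members.

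The rest of the list of 28 contractile genes moved largely with Acta2 and Myh11. Against matrix stromal cells 27 of the 28 genes were higher in members and none was lower, with a median log2 difference of 2.63 against -0.03 over the 12243 genes tested. Of all tested genes 6.05% were called higher and 6.53% lower. Against Ednrb Foxp2 cells 17 of 28 were higher and none lower (median 1.13 against -0.02), where 2.14% of 9611 genes were higher and 1.56% lower. Against Rgs5 mural cells 20 of 28 were higher and none lower (median 1.40 against -0.01), where 8.14% of 10315 genes were higher and 10.4% lower. Tpm2 (beta tropomyosin) was higher in all 3 comparisons, by 2.06 ± 0.08, 1.98 ± 0.10 and 4.00 ± 0.10 over Ednrb Foxp2, mural and stromal cells. Mylk, the kinase that activates myosin, stood at 2861, 3204, 3146, 2838 and 2657 CPM and was higher by 1.22 ± 0.08, 2.20 ± 0.13 and 3.48 ± 0.08. Lmod1 (leiomodin 1, which nucleates actin filaments) was higher by 1.48 ± 0.14, 1.54 ± 0.12 and 5.60 ± 0.09. Lists of contractile genes overlap in function with the genes of the rule, so their direction is part of how the cells were chosen.

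**Figure D2:**
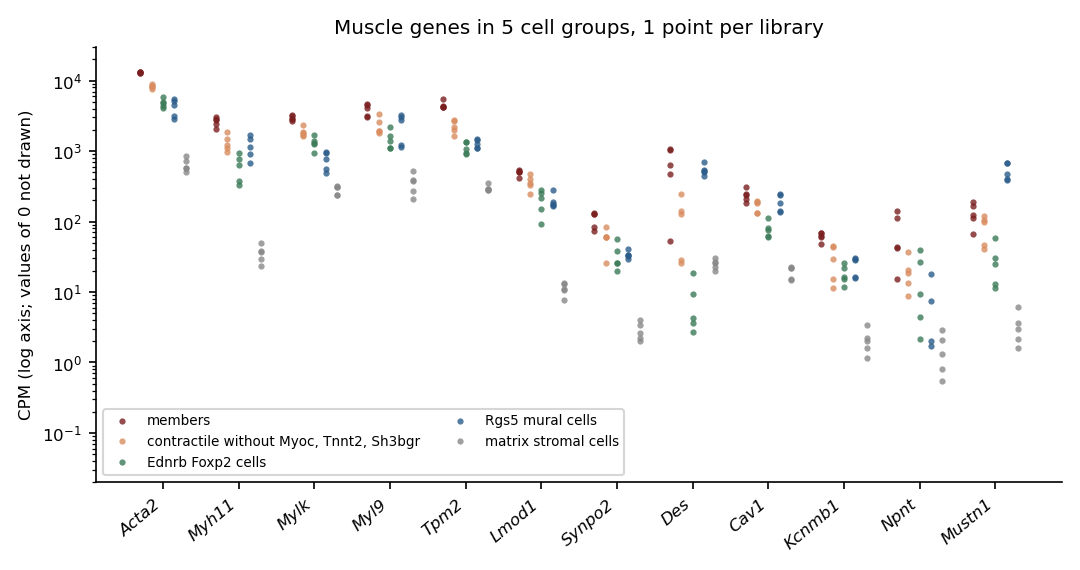
CPM on a log axis of 12 muscle-related genes in members, in contractile cells without Myoc, Tnnt2 and Sh3bgr, and in Ednrb Foxp2, Rgs5 mural and matrix stromal cells, with 1 point per library and values of 0 not drawn. For Acta2 all 5 points of the members lie above those of every other group, while for Des the members spread from 53.6 to 1073 CPM.

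The CArG box is the DNA element that serum response factor binds, and it is shown here because the contractile genes moved together, though its share was not higher than among striated muscle genes. RefSeq windows (GRCm38.p6) of the 250 bases before the start were found for 25 of the 28 contractile genes. The pattern searched was CC, then 6 bases that are each A or T, then GG, which as a pattern reads the same on both strands, so that a search of 1 strand covers both. It was found for 6 of the 25 genes (24%), against 439 of 27025 genes of the table (1.62%). It was also found for 5 of 20 genes of the striated muscle list (25%). Of the 10 genes of the rule, counting those that exclude a cell, 6 had a window and none of these had the box. Each stretch below has the box in capitals with 10 bases on either side, read 5′ to 3′ on the strand of the gene.

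Cnn2 (calponin 2, chr10:79988534-79988563, plus strand): cgcttccacgCCTTATAAGGacatttgctc
Vcl (vinculin, which links actin to adhesions, chr14:20929161-20929190, plus strand): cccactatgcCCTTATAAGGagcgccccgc
Myl9 (regulatory myosin light chain, chr2:156775293-156775322, plus strand): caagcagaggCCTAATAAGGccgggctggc
Myl6 (essential myosin light chain, chr10:128493040-128493069, minus strand): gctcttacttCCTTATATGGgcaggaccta
Fhl1 (a LIM-domain protein, chrX:56779571-56779600, plus strand): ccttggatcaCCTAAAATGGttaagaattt
Fbxl22 (an F-box protein, chr9:66514796-66514825, minus strand): aaaagaaatcCCTTTTAAGGaaaacttgta

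The box of Cnn2 and that of Vcl have the same letters. All 6 genes were higher in members than in matrix stromal cells, from 1.91 ± 0.07 for Vcl to 4.02 ± 0.15 for Fbxl22 on the log2 scale, with Myl9 at 3.62 ± 0.11 and Fhl1 at 3.79 ± 0.09. These genes were tested on RNA alone, and a match is a description of the letters, not of binding.

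Regulators, channels and caveolae differed less evenly. Myocd, which encodes myocardin, stood at 95.2, 100.4, 120.5, 119 and 141 CPM in members, with 18.9 to 37.7 CPM in mural cells and 72.9 to 119.7 CPM in Ednrb Foxp2 cells. It was higher than in mural cells by 2.18 ± 0.21 and than in stromal cells by 3.04 ± 0.15, and its difference from Ednrb Foxp2 cells was 0.36 ± 0.14 (edgeR adjusted p = 0.090). The counts of called list members that follow stand beside 8.14% of all genes higher and 10.4% lower against mural cells, 2.14% and 1.56% against Ednrb Foxp2 cells, and 6.05% and 6.53% against stromal cells. Of the transcription regulators 4 of 15 tested were higher and 2 lower in members than in mural cells. Mef2c, a partner of muscle regulators, was 1 of the 2 lower genes, at 89.4 to 159 CPM in members and 784 to 916 CPM in mural cells. Of the genes for calcium handling and ion channels 7 of 16 were higher and 1 lower than in stromal cells, 4 of 13 higher than in Ednrb Foxp2 cells, and 3 of 18 higher and 4 lower than in mural cells. Kcnmb1, the smooth muscle subunit of the calcium-activated BK potassium channel, stood at 62.5, 67.9, 67.8, 60.7 and 47.7 CPM in members and was higher in each comparison, by 1.83 ± 0.18 over Ednrb Foxp2, 1.45 ± 0.18 over mural and 4.99 ± 0.16 over stromal cells. Of the genes of caveolae and gap junctions 3 of 7 were higher than in Ednrb Foxp2 cells, 5 of 8 than in stromal cells, and 2 of 7 higher and 2 lower than in mural cells. Cav1, the main protein of caveolae, was higher than in Ednrb Foxp2 cells by 1.64 ± 0.15 and than in stromal cells by 3.72 ± 0.11, and was not called against mural cells (0.51 ± 0.15, edgeR adjusted p = 0.019).

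Vascular mural cells carried a separate set of genes. All 11 pericyte markers of the list were lower in members, with a median of -6.94. Higd1b, a pericyte gene, had 228 to 292 CPM in mural cells and at most 0.212 CPM in members, where 3 libraries had none. Notch3, the receptor of mural cells, had 371 to 740.2 CPM in mural cells and 2.04 to 6.36 CPM in members. In members the summed pericyte markers came to 80.3, 75.4, 65.5, 74.3 and 49.4 CPM in the order of age. Soluble guanylate cyclase, the receptor of nitric oxide, was also lower, with Gucy1a1 at -2.92 ± 0.12 and Gucy1b1 at -4.29 ± 0.19, and so was the cation channel gene Trpc6 at -5.28 ± 0.20. Among the genes with the highest differences, of 1 sign in all 5 libraries, were Pkp2 (plakophilin 2, a desmosomal protein) at 5.47 ± 0.22, Fhod3 (a formin that assembles actin) at 5.43 ± 0.31, Foxp2 (a transcription factor) at 5.34 ± 0.27 and Cxcl14 (a chemokine) at 5.19 ± 0.16. Cxcl14 stood at 402, 511, 756, 1116 and 1175 CPM in members and at 11.8 to 42.4 CPM in mural cells. Serpinf1, a stromal marker that encodes the secreted pigment epithelium-derived factor, was higher by 4.76 ± 0.35. Of 9 stromal markers 5 were higher in members than in mural cells and none was lower (median 1.045). Of 11 dissociation stress genes 3 were higher and none lower, and of 10 cell cycle genes 3 were lower and none higher. These counts stand beside 8.14% of all genes higher and 10.4% lower, and their part in the differences was not tested.

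Matrix and adhesion genes differed in both directions. Against mural cells 10 of 29 matrix and adhesion genes were higher and 10 lower, beside 8.14% and 10.4% of all genes. Those lower included the collagens of the vessel basement membrane Col4a1 (-2.48 ± 0.08) and Col4a2 (-2.40 ± 0.09) and elastin, Eln (-2.48 ± 0.21), and those higher included Ogn (osteoglycin, 4.14 ± 0.32), Col4a4 (2.66 ± 0.22) and Mfap5, a protein of microfibrils (4.70 ± 0.42). Against stromal cells 10 of 30 were higher and 6 lower, beside 6.05% and 6.53%. Npnt (nephronectin, an integrin ligand) was among the higher genes, at 5.61 ± 0.16, and Eln among the lower ones, at -1.11 ± 0.26. Of the genes named by size against stromal cells, Dpt (dermatopontin) at -5.15 ± 0.17, Clec3b at -5.51 ± 0.21 and Vcam1 at -3.68 ± 0.22 were lower.

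Receptors differed from group to group. Oxtr, the oxytocin receptor, stood at 9.54, 18.6, 18.9, 22.4 and 33.7 CPM in members and at no more than 2.85 CPM in mural cells, and was higher by 5.05 ± 0.58 over mural and 2.22 ± 0.14 over stromal cells. Its difference from Ednrb Foxp2 cells was 0.17 ± 0.27 (edgeR adjusted p = 0.74). Chrm3, a muscarinic acetylcholine receptor, was higher than in Ednrb Foxp2 cells by 2.78 ± 0.58 and than in stromal cells by 2.77 ± 0.20. Agtr1a, an angiotensin receptor, was lower than in mural cells, at -5.21 ± 0.43. Over the list, 4 of 15 receptors were higher and 5 lower than in mural cells, 2 of 9 higher and 2 lower than in Ednrb Foxp2 cells, and 3 of 16 higher and 3 lower than in stromal cells. Of all genes tested, 8.14% were higher and 10.4% lower than in mural cells, 2.14% and 1.56% than in Ednrb Foxp2 cells, and 6.05% and 6.53% than in stromal cells.

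Between members and Ednrb Foxp2 cells the highest difference was that of Des. Des encodes desmin, the intermediate filament of muscle. It stood at 1029, 1073, 470.0, 640.2 and 53.6 CPM in members and at 2.67 to 18.6 CPM in Ednrb Foxp2 cells, so the library sums did not overlap. A Des UMI was found in 68.9% of members at 2 wk and 17.1% at 6 wk, against 8.57% and 2.86% of Ednrb Foxp2 cells, so many members had none, as had most Ednrb Foxp2 cells. The difference of the sums was 6.31 ± 0.19. Postn (periostin, a matrix protein) was higher by 3.58 ± 0.21, Rspo3 (R-spondin 3, which strengthens Wnt signals) by 4.02 ± 0.33 and Filip1 by 3.54 ± 0.24. In the other direction, Hmga2 (-2.81 ± 0.26), Clec1a (-1.90 ± 0.16), Tenm4 (-1.72 ± 0.15) and Mgp (matrix Gla protein, -1.21 ± 0.08) were higher in Ednrb Foxp2 cells. Clec1a stood at 141 to 177 CPM there and at 29.9 to 61.1 CPM in members. Of 9 stromal markers 3 were lower in members and none higher, beside 1.56% and 2.14% of all genes. They were Pdgfra at -1.64 ± 0.15, Lum at -1.56 ± 0.13 and Mmp2 at -1.15 ± 0.10. Against mural cells the difference of Des was 0.01 ± 0.48 (edgeR adjusted p = 0.99), with 436 to 701 CPM in mural cells, inside the range of members.

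The cells just outside the rule, which met every contractile clause but held no UMI of Myoc, Tnnt2 or Sh3bgr, differed from members in the fewest genes called. There were 232 of them, with 28, 48, 40, 66 and 50 per library. With the library as a block 48 genes were higher and 17 lower in members of 9345 tested, so that 0.696% were called. Without the block edgeR called 0 genes, with 573 at an unadjusted p under 0.05 against 1201 with it, DESeq2 called 40, and edgeR with the block called 34 without the 5 wk library. Pcp4, which encodes a small calmodulin-binding protein, was the gene with the highest difference, 6.46 ± 0.35, and stood at 346, 115, 22.1, 159.6 and 1.87 CPM in members. Des was higher in members by 2.58 ± 0.23, and Tspan13 (a tetraspanin) by 2.60 ± 0.29, Postn by 1.94 ± 0.22, Npnt by 1.70 ± 0.27 and Myh11 by 1.04 ± 0.08. Of the 28 contractile genes 4 were called higher, Myh11, Tpm2, Pdlim3 and Des, and none lower (median 0.53 against -0.02 over all genes). Pdgfra was lower in members, at -1.16 ± 0.18, and so was Hsd11b2, which encodes an enzyme that inactivates glucocorticoids, at -1.28 ± 0.16. Members held more UMIs per cell than these cells in 4 of 5 libraries, with medians of 12638.5 against 10852.5 at 2 wk and 12053 against 7265.5 at 5 wk. Among cells with 5000 to 30000 UMIs, 48 genes were higher and 16 lower of 9118 tested.

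Members varied widely in Des. The split was drawn after the levels of Des had been seen, so it is given as a description, with no test. Members with at least 5 Des UMIs, called Des-high, numbered 146, 120, 67, 80 and 19 at 2, 3, 4, 5 and 6 wk, which was 42.4%, 39.6%, 19.6%, 22.2% and 4.52% of the members. Members without a Des UMI, called Des-zero, numbered 107, 129, 218, 215 and 348, or 31.1%, 42.6%, 63.7%, 59.6% and 82.9%. The members between them, with 1 to 4 Des UMIs, numbered 91, 54, 57, 66 and 53, so that Des had no clean gap at the limits chosen. The exact binomial intervals of the Des-high share were 37.2 to 47.9% at 2 wk and 2.75 to 6.98% at 6 wk. After the members with at least 5000 UMIs had been thinned to 5000 UMIs each, with the rule not applied again, it was 29.2%, 36.0%, 14.7%, 14.8% and 1.21%. Des-high members held a median of 20.5, 20, 14, 20.5 and 8 Des UMIs before thinning. In hematopoietic cells a Des UMI was found in 2 of 32 cells at 2 wk and 2 of 89 at 6 wk.

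Des-high members lay mostly beside each other up to 5 wk in the same principal components, which left out the genes of the rule but not Des. At 2 wk 73.5% of the neighbours of a Des-high member were Des-high and 4.76% Des-zero. At 3, 4 and 5 wk 77.8%, 57.5% and 60.3% were Des-high. At 6 wk, where only 19 such cells were present, 16.1% were Des-high and 50.5% Des-zero. The neighbours of a Des-zero member were Des-zero in 35.0%, 42.8%, 51.5%, 43.7% and 55.5% of cases and Des-high in 2.20% to 6.92%. Members with 1 to 4 Des UMIs lay among all classes, with 22.6% Des-high, 22.4% of their own class and 22.9% Des-zero neighbours at 2 wk. These shares follow in part how common each class was, and whether the members are graded or divided was not tested. Of 9403 genes with at least 100 UMIs over both classes, 89 were at least 2-fold higher in Des-high members in all 5 libraries and 33 at least 2-fold lower. Genes named in this comparison were chosen after their values had been seen, some for their smallest fold over the libraries and some from the lists.

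Des-high members had the higher level of the contractile genes. Of 27 contractile genes other than Des, 22 were higher in Des-high than in Des-zero members in all 5 libraries and none was lower in all 5. At any fold, 11.8% of the 9403 genes were higher in all 5 libraries and 12.1% lower. Actg2 stood at 5029, 4778, 4528, 4466 and 3438 CPM in Des-high members and at 1013, 1247, 1592, 1540.1 and 1391 CPM in Des-zero members. Cnn1 stood at 2366, 3318, 2636, 2039 and 1887 CPM against 639, 1048, 867, 682 and 668 CPM. The rule required UMIs of both genes, so these levels describe the cells chosen. Myh11 ran from 3370.5 to 4702 CPM in Des-high and from 1490.3 to 2474 CPM in Des-zero members. Of 4 pericyte markers measured 3 were also higher in Des-high members in all 5 libraries (Cspg4, Kcnj8 and Abcc9), and of 9 stromal markers 4 were lower (Lum, Mmp2, Tcf21 and Nr2f2) and 2 higher, and their part in the result was not tested. Myocd went the other way, with 55.8 to 107 CPM in Des-high and 119 to 142 CPM in Des-zero members.

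Some muscle genes were at or near 0 in Des-zero members. Of 17 genes for calcium handling and ion channels 6 were higher in Des-high members in all 5 libraries and 1, Itpr1, was lower, beside 11.8% and 12.1% of all genes. Trdn encodes triadin, which anchors calcium release channels to the sarcoplasmic reticulum. It stood at 38.1, 72.5, 18.3, 96.7 and 3.15 CPM in Des-high members and at most at 0.945 CPM in Des-zero members. Mybpc1, the slow myosin-binding protein C, stood at 53.1, 71.5, 26.8, 43.7 and 3.15 CPM against at most 0.728 CPM. At 6 wk these 2 values rest on 1 UMI each. Ryr3, a ryanodine receptor, and Pln (phospholamban, which restrains the calcium pump) had means of 17.6 and 30.1 CPM over the libraries in Des-high members and 0.655 and 0.56 CPM in Des-zero members, and both were at 0 in the Des-high cells of 6 wk. Casq2 (calsequestrin 2, which stores calcium) had a mean of 9.94 CPM in Des-high and 12.6 CPM in Des-zero members, and Tnnt2 had a UMI in 51.6% to 83.2% of Des-zero members. Slitrk3, a membrane protein known from synapses, was at 0 in Des-zero members of every library and at 46.1, 41.1, 11.3, 22.6 and 6.29 CPM in Des-high members. Tspan13 stood at 374, 382, 109.9, 254 and 53.5 CPM against at most 5.82 CPM. Scx, the transcription factor scleraxis known from tendon, stood at 12.6 to 84.5 CPM in Des-high and 0.762 to 4.72 CPM in Des-zero members.

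**Figure D3:**
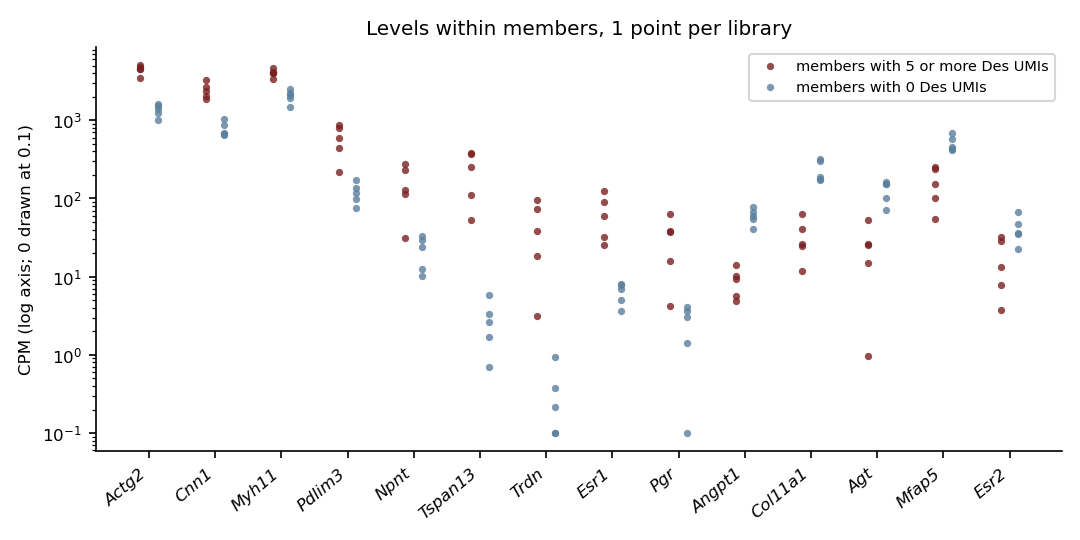
CPM on a log axis of 14 genes in members with at least 5 Des UMIs and in members with none, with 1 point per library and values of 0 drawn at 0.1. Tspan13 and Trdn lie higher in Des-high members in every library, and Angpt1 and Col11a1 higher in Des-zero members.

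Sex steroid receptors differed between the classes. Esr1, the estrogen receptor alpha, stood at 59.2, 123, 32.4, 89.7 and 25.2 CPM in Des-high members and at 7.73, 5.10, 8.03, 6.86 and 3.64 CPM in Des-zero members. Pgr, the progesterone receptor, stood at 37.6, 63.7, 4.23, 38.2 and 15.7 CPM against 0, 3.64, 1.42, 3.05 and 4.06 CPM. Esr2, the estrogen receptor beta, was the other way round, with 3.76, 7.84, 32.4, 13.3 and 28.3 CPM against 22.5, 36.4, 66.6, 35.5 and 47.3 CPM. The libraries of the 2 classes did not overlap for Esr1, and did for Esr2. For Pgr the lowest Des-high value, 4.23 CPM at 4 wk, rests on 3 UMIs. It lies beside the highest Des-zero value, 4.06 CPM in another library, so no gap between the ranges can be read. Within each library Pgr was higher in Des-high than in Des-zero members, and so was Esr1, while Esr2 was lower.

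Matrix and adhesion genes were split between the classes. Of 27, 9 were lower in Des-high members in all 5 libraries, among them Mfap5, Col4a3, Col4a4 and Lama2, 6 were higher, among them Npnt and Itga5, and 12 were mixed. These shares stand beside the 12.1% and 11.8% of all genes given above. Col11a1, a fibrillar collagen, stood at 24.9, 11.8, 63.4, 26.5 and 40.9 CPM in Des-high members and at 176, 303, 316, 175 and 191 CPM in Des-zero members. Angpt1 (angiopoietin 1, a ligand of the endothelial Tie2 receptor) stood at 4.90 to 14.0 CPM against 40.2 to 78.0 CPM. Agt (angiotensinogen) stood at 0.979 to 53.5 CPM against 71.7 to 162 CPM, and Rbp4 (a carrier of retinol) had a mean of 14.7 against 117.9 CPM. Neither Col11a1 nor Agt overlapped between the classes, but both were named for their folds between them, so this lends no support to the split. How many of all genes did not overlap was not counted.

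Across ages, more genes were lower than higher in members of 6 wk against those of 2 wk. Of 8188 genes with at least 100 UMIs over both libraries, 1.95% were at least 2-fold higher and 5.39% at least 2-fold lower at 6 wk, and the median log2 ratio was -0.10. Genes at least 2-fold lower numbered 441 over all members and 185 of 6323 in Des-zero members, where 129 were higher. After thinning they numbered 167, and in both cases fewer genes reached 100 UMIs. Of the 28 contractile genes 0 were 2-fold higher and 2 were 2-fold lower, Des and Pdlim3, a PDZ and LIM protein of actin anchoring sites. Actg2 stood at 2872, 2616, 2288, 2503 and 1572 CPM, a 6 wk level of 0.547 times that of 2 wk (95% interval 0.533 to 0.562). Cnn1 stood at 1478, 1980.3, 1297, 1119 and 753 CPM, with a ratio of 0.509, and Tagln at 9309, 9932, 10052, 9721 and 7528 CPM, with a ratio of 0.809. Since the rule used these 3 genes, their levels are a description of the cells chosen. Des had a ratio of 0.0521 (0.0464 to 0.0584).

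Levels over the ages were also taken within Des-zero members. These were 31.1% of members at 2 wk and 82.9% at 6 wk, and whether they are the same cells at both ages cannot be told, nor can levels of Actg2, Cnn1 and Tagln be read apart from the rule. The ratio of 6 to 2 wk was 1.37 for Actg2 (1.30 to 1.46), 1.045 for Cnn1 (0.971 to 1.13), 1.19 for Tagln (1.16 to 1.22) and 1.30 for Myh11 (1.24 to 1.36). For Acta2 it was 1.14 (1.12 to 1.16) in Des-zero and 1.18 (1.15 to 1.21) in Des-high members, and 0.990 over all members. Over all members Myh11 had a ratio of 0.862. Of 27 contractile genes other than Des, 16 had an interval below 1 and 7 above 1 over all members, with a median ratio of 0.915. Of the 8187 genes other than Des with at least 100 UMIs, 30.3% lay below 1 and 15.7% above, with a median of 0.935. Within Des-zero members 4 of the 27 lay below 1 and 12 above 1, with a median of 1.08, against 22.5% and 12.2% of 6323 genes and a median of 0.950. Within Des-high members Actg2 had a ratio of 0.684, on the 19 cells of 6 wk, and Myh11 a ratio of 1.40. Tnnt2 was lower at 6 wk in each set, with ratios of 0.310 over all members, 0.405 in Des-zero and 0.400 in Des-high members. The rule also used Tnnt2, so its level in members cannot be read apart from the rule. In cells not chosen on Tnnt2 its ratio was 0.155 in Ednrb Foxp2 and 0.360 in matrix stromal cells. In mural cells it was 1.04 (0.646 to 1.70). A lower level per cell and fewer cells of a class can be told apart only as far as Des marks the classes.

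**Figure D4:**
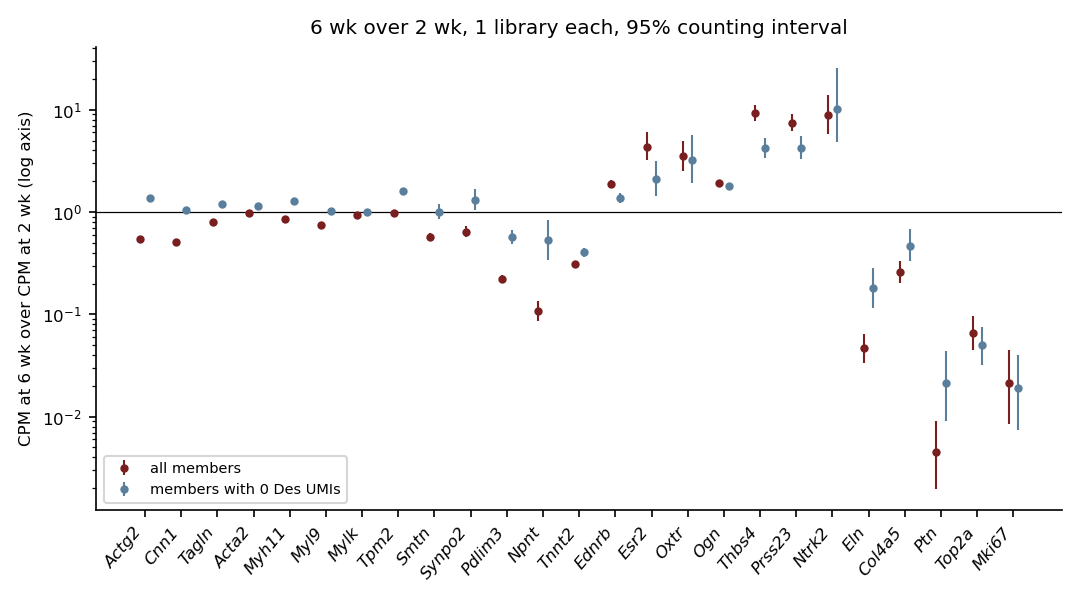
CPM of the 6 wk library over that of the 2 wk library on a log axis, for 25 genes, in all members and in members without a Des UMI, with 95% counting intervals and a line at 1. Actg2 and Myh11 lie below 1 in all members and above 1 in Des-zero members, while Ednrb, Thbs4 and Ntrk2 lie above 1 and Ptn, Eln and Mki67 below 1 in both.

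Cell cycle genes were lower at 6 wk. Of 10 genes 7 were at least 2-fold lower at 6 wk and none 2-fold higher, with a median log2 ratio of -2.64, beside 5.39% and 1.95% of all genes and a median of -0.10. Mki67, a marker of cycling cells, stood at 56.0, 28.6, 24.7, 14.1 and 1.19 CPM, and Top2a, topoisomerase 2 alpha, at 82.0, 65.4, 53.6, 39.5 and 5.45 CPM. Both were lower in each library than in that of the age before. The ratio of Top2a was 0.0664 in members and 0.0501 in Des-zero members, 0.497 in matrix stromal, 0.656 in Ednrb Foxp2 and 1.24 (0.952 to 1.62) in mural cells of the same libraries. That of Mki67 was 0.0213 in members, 0.476 in stromal, 0.708 in mural and 1.67 (1.26 to 2.23) in Ednrb Foxp2 cells. Ccnd1, the G1 cyclin D1, stood at 60.0, 32.5, 5.82, 16.8 and 1.02 CPM. Its level at 2 wk was 123.2 CPM in Des-high and 4.92 CPM in Des-zero members, and the latter had 7 UMIs at 2 wk and 4 at 6 wk.

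Several of the genes lower at 6 wk in members were also lower in the other cell groups. Ptn (pleiotrophin, a secreted growth factor) stood at 299, 93.6, 51.2, 62.9 and 1.36 CPM. Eln stood at 149 CPM at 2 wk and 6.98 CPM at 6 wk, a ratio of 0.0470, and Col4a5 at 60.6, 37.9, 16.9, 30.6 and 15.8 CPM. Agtr2, the angiotensin receptor 2, stood at 26.9, 6.79, 0.291, 5.38 and 0 CPM, and Dlk1, a Notch-related membrane protein, at 25.4, 0.715, 0.291, 0 and 0 CPM. Against the limit that a count of 0 allows at 6 wk (3 UMIs, or 0.511 CPM), they were at least 52.7-fold and at least 49.8-fold lower. In matrix stromal cells the ratio of 6 to 2 wk was 0.0889 for Ptn, 0.170 for Eln, 0.0714 for Agtr2 and 0.0193 for Dlk1, and in mural cells that of Eln was 0.0617. Dlk1 went from 39 UMIs to 0 in Ednrb Foxp2 cells. Of the matrix list 5 of 27 genes were 2-fold lower and 1 was 2-fold higher, beside 5.39% and 1.95% of all genes. Mybpc1, Slitrk3 and Krt18 completed the lowest ratios, and the first pair are genes of Des-high members.

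Of 9 receptor genes 2 were at least 2-fold higher at 6 wk and 3 at least 2-fold lower, beside 1.95% and 5.39% of all genes. Among the genes named for the highest ratios, Thbs4 (thrombospondin 4, a matrix protein) stood at 27.8, 48.6, 99.0, 109 and 256 CPM. Its ratio was 9.23 (7.71 to 11.1) over all members and 4.19 in Des-zero members. In matrix stromal, mural and Ednrb Foxp2 cells it was 4.205, 4.01 and 3.63. Ntrk2, the receptor of the neurotrophin BDNF, stood at 5.30, 12.5, 34.6, 31.1 and 46.7 CPM, and Prss23, a serine protease, at 24.4, 55.7, 148, 93.8 and 183 CPM. Ednrb, the endothelin receptor B, stood at 182, 214, 291, 347 and 346 CPM, with a ratio of 1.90 in all members and 1.37 in Des-zero members. Oxtr had a ratio of 3.54 (2.55 to 5.00) over all members, 3.196 in Des-zero members and 3.97 in matrix stromal cells. Esr2 had a ratio of 4.37 over all members and 2.10 in Des-zero members. Esr1 was lower, with a ratio of 0.144 over all members and 0.470 in Des-zero members, where the interval (0.208 to 1.11) held 1. The interferon-induced genes Isg15 and Ifi27l2a had ratios of 15.4 and 9.75, and 33.2 and 28.1 in matrix stromal cells. The ratios of Nap1l5 and Alox5ap were 9.78 and 7.50, and 5.388 and 5.475 in matrix stromal cells. Those of Ntrk2 and Prss23 were 8.806 and 7.497, and 2.799 and 2.263 in matrix stromal cells. AY036118, a transcript from a ribosomal RNA region, stood at 94.3, 237, 187, 708 and 887 CPM, with its 2 highest levels in the libraries made with the later Cell Ranger, and had a ratio of 20.04 in matrix stromal cells.

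RNA of other cell types was low in members, with a few exceptions. Summed markers came to 8.22 to 14.0 CPM for endothelial cells, 2.28 to 22.7 CPM for hematopoietic cells and 0.852 to 15.4 CPM for germ cells. Granulosa markers summed to 204 to 284 CPM, led by Foxl2 or Serpine2, with none of the 8 genes at 0. In hematopoietic cells an Inha UMI was found in 10 of 32 cells at 2 wk and 29 of 49 at 4 wk, and in members in 102 of 344 and 219 of 342. Surface epithelial markers came to 70.4 CPM at 2 wk, led by Krt18, and to 14.7 CPM or less later, with 5 of 7 genes at 0 at 3 wk. Stromal markers summed to 2045 to 2809 CPM, led by Dcn or Serpinf1, with none of the 9 at 0. Of these 9 genes 5 were at least 2-fold lower at 6 wk and 1 at least 2-fold higher (median log2 ratio -1.03), beside 5.39% and 1.95% of all genes, and Dcn went from a median of 9 UMIs per member at 2 wk to 2 at 6 wk. Theca markers came to 19.4 to 32.3 CPM except at 5 wk, with 122 CPM, where 1 member held 92.4% of the UMIs of Cyp11a1 and Cyp17a1. Without that cell these 2 genes went from 71.2 to 5.38 CPM. Globin genes came to 1509 CPM at 5 wk and 103.9 CPM at 4 wk, where 1 member held 89.3% and 99.2% of the globin UMIs, and to at most 0.852 CPM in the other libraries. Without that cell they came to 161.9 and 0.873 CPM. Dissociation stress genes summed to 15414, 19391, 20222, 19906 and 18569 CPM, led by Fos. None of 11 stress genes was 2-fold higher or lower at 6 wk. Against matrix stromal cells 2 of 11 stress genes, 2 of 8 granulosa markers and 0 of 10 cell cycle genes were higher in members, and 3 of the cell cycle genes and 3 of 6 theca markers were lower, where 6.05% of all genes were higher and 6.53% lower. The striated muscle list summed to 413 to 549 CPM, led by Fhl2 or Mustn1, and 6 of its 10 genes tested were higher and 1 lower than in stromal cells. The part of these lists in the results was not tested.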

How the data were processed

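Counts of UMIs per gene and cell were deposited by the authors as filtered 10x matrices for 5 libraries. Per the labels and file headers they were made with Cell Ranger 3.1.0 (2, 3 and 4 wk) or 6.0.1 (5 and 6 wk) against mm10, and 31053 genes were listed. Cells with at least 1000 genes and a mitochondrial share under 15% were kept. Scrublet (scanpy 1.11.5) doublets were counted, not removed. The members and gene lists were chosen with earlier results of these data known.

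UMIs were summed per library and cell group and given as CPM (a gene's counts over all counts of the group, times 10 to the power 6), and edgeR 4.0.16 (TMM, filterByExpr, quasi-likelihood test, library as block, Benjamini-Hochberg adjustment) compared groups over 5 libraries. The library number pairs sums because both come from 1 library. Groups were chosen by transcripts, so p-values describe the groups. DESeq2 1.42.0 was an alternative. Levels between ages, with 1 library each, have exact Poisson, binomial or conditional 95% intervals for counting error only. A count of 0 allows 3 UMIs. Other alternatives changed the limits of the rule, cell depth, filters and the libraries used. Scripts were tested on simulated data.

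Genes were named if they were in the rule or needed to describe a list, if they were among the 8 highest or lowest differences called (1 sign in every library, at least 30 CPM in the higher group), or the 8 highest or lowest ratios of 6 to 2 wk with at least 100 UMIs whose 3 and 5 wk levels went the same way. Ribosomal, mitochondrial, Gm and Rik genes were left out. Genes named for Des-high and Des-zero members were chosen after their values were seen. The result of 1 gene list is not reported here.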

Additional observations from a re-analysis of the deposited data

How the results depend on the processing

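Shares of members moved with the limits of the rule. With at least 1 UMI of Actg2, Cnn1 and Tagln they were 4.964%, 4.319%, 6.603% and 5.712% at 2, 4, 5 and 6 wk, and with at least 3 UMIs 3.326%, 4.803% and 4.148% at 4, 5 and 6 wk. Stricter limits on genes and mitochondrial share gave 6.52% and 5.727% at 5 and 6 wk. Thinning to 5000 UMIs gave 3.699%, 3.515%, 3.026%, 4.201% and 3.212% in the order of age, and a ratio of 6 to 2 wk of 0.8685 (0.7301 to 1.033). That ratio was 1.172 (1.012 to 1.358) under the stricter limits and 1.151 (1.006 to 1.317) with at least 1 UMI, both with intervals above 1, against 1.073 (0.9284 to 1.241) as reported. Of all deposited cells the shares were 3.632%, 3.275%, 3.087%, 4.641% and 3.969%. Against contractile cells without Myoc, Tnnt2 and Sh3bgr, 65 genes were called with the library as block, 0 with no block, 136 with no filter on low counts and 40 with DESeq2. Leaving out a library gave 34 (without 5 wk) to 72 (without 6 wk). Against Ednrb Foxp2 cells, 356 genes were called with the block, 228 with no block and 553 with no filter, and 330 to 410 when a library was left out. Leaving out a library gave 1807 to 2041 genes against mural and 1421 to 1674 against stromal cells. Genes at least 2-fold lower at 6 wk numbered 167 after thinning and 185 in Des-zero members, against 441, with fewer genes reaching 100 UMIs. In Des-zero members, a choice made after seeing the data, the ratios of Actg2 (1.373), Cnn1 (1.045), Tagln (1.188) and Myh11 (1.297) lay on the other side of 1, with an interval that held 1 for Cnn1. Of the differences called for named genes and for genes of the lists, 3144 kept direction and call under alternatives, 147 kept direction only and 0 reversed. Differences of list genes that were not called as reported were left out of this count, so it does not cover weak differences. The cause of other changes was not tested. A single library per age and 19 Des-high cells at 6 wk limit what the ages can show.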
